A study of Mus musculus with 4 samples.

Results

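From the pseudoglandular to the terminal sac stage of embryonic mouse lung, the share of some circular RNAs (circRNAs) among all circRNA reads moved several-fold. Of the 10 circles with most reads, that of Sftpc alone moved 2-fold or more. Circles hosted by Rmdn2, Pias1, Scn7a, Gbe1 and the type 2 cell gene Lamp3 took a larger share at the terminal sac stage, and circles of Ttn, Slc8a1, Zfp407 and Smg6 a smaller one. The comparison covered circRNAs that reached 10 junction reads when both libraries were added, which were 1131 of the 8530 circRNAs listed in either library and of the 13499 listed in the whole series. Of these 1131, 974 were listed in both libraries, 50 in the pseudoglandular library alone and 107 in the terminal sac library alone. They came from 769 host genes and held 59.3% of the pseudoglandular and 61.1% of the terminal sac junction reads.

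A circRNA forms when a splice donor joins an acceptor that lies upstream of it, so that 1 or more exons close into a ring without free ends. Such rings resist exonucleases and can outlast the linear messenger of the same gene. In the pseudoglandular stage the lung is a branching tree of epithelial tubes in loose mesenchyme, in the canalicular stage the tips widen and capillaries approach them, and in the terminal sac stage thin-walled sacs form and type 2 cells begin to make surfactant.

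The series holds 1 library for each of 4 stages of C57BL/6 mouse lung, made from total RNA, and 3 are used here: embryonic day 14.5 (pseudoglandular), 16.5 (canalicular) and 18.5 (terminal sac). No treatment or engineered allele is named in the labels, and they do not say how many animals or lungs each one holds. Since a stage has a single library, the comparison is of libraries and not of stages in general, no p-value is given, and every interval is a 95% interval for the counting error of reads, which PCR copies can make too narrow. The canalicular library served only as the point between the ends.

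A junction read crosses the back-splice junction, a sequence that the linear messenger does not hold. The pseudoglandular library listed 25983 junction reads over 4599 circRNAs, the canalicular 31218 over 4947 and the terminal sac 36156 over 5564. Every share below is a percentage of these totals. Between 91.3% and 94.0% of the junction reads came from circles of the exon type. Of 18 marker genes of alveolar type 2 cells, 8 hosted a circle in these libraries. Hepatocyte genes also appeared, from a list of 41 chosen after the values had been seen. The pseudoglandular library listed none of them, the canalicular 2 and the terminal sac 8 (Alb, Apoa2, Apoe, C3, Cp, Fga, Itih2 and Gm20425, a model that overlaps the transferrin gene). They held 0 of 25983 junction reads (upper exact limit 0.0142%), then 10 (0.0320%, exact Clopper-Pearson interval 0.0154 to 0.0589), then 143 (0.396%, 0.333 to 0.466), and in the terminal sac library 12.6% of the summed non-junction reads. Non-junction reads are reported only where a circle is listed, so the linear level of these genes in the pseudoglandular library is not known from these files. The part of such RNA in the results was not tested beyond leaving these genes out, and Afp, Ttr, Apoa1 and Hnf4a hosted no listed circle.

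The joined ends of the circles that the results turn on are given here, each as the last 30 bases of the donor exon in lower case followed by the first 30 bases of the acceptor exon in capitals, 5′ to 3′ on the host strand. They were cut from GENCODE M21 transcripts with ends at the mm10 coordinates in the files. The first 4 were higher and the next 3 lower in the terminal sac library.
Rmdn2 exons 3 to 5: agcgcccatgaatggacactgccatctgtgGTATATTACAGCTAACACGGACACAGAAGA
Pias1 exons 3 to 7: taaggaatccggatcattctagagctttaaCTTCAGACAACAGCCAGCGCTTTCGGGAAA
Scn7a exons 5 to 9: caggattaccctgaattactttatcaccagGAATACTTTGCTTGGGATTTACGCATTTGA
Lamp3 exons 2 to 5: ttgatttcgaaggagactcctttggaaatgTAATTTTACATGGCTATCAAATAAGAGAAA
Ttn exons 123 to 127: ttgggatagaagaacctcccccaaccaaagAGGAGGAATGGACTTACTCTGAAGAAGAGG
Slc8a1 exons 3 to 9: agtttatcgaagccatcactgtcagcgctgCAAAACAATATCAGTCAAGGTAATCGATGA
Smg6 exons 2 to 10: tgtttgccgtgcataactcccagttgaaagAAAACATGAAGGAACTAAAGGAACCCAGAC
The next pair shares a donor and differs in the acceptor by a few bases, which decides how a junction is named and counted. The first is the junction listed in all 3 libraries.
Gbe1, acceptor at 70433545: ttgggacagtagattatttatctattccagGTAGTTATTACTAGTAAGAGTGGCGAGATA
Gbe1, acceptor at 70433549: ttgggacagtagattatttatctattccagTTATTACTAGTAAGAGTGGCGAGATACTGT
The circle of Bub1b is shown because its junction reads held while its non-junction reads fell.
Bub1b exons 17 to 19: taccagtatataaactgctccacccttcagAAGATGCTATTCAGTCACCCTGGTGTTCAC
The last junction, of Col4a1, is shown because its ends repeat each other. Here the capitals mark the 14 bases that both ends hold in the spliced transcript, so that the exact point of joining cannot be read from the sequence.
Col4a1 exons 24 to 27: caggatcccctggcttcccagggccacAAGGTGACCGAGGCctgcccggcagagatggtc

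A circRNA was called higher or lower where its share differed by 2-fold or more and the interval of the ratio left out 1. Of the 1131 compared, 107 were higher in the terminal sac library (9.46%), 160 were lower (14.1%) and 864 were neither. The higher circles together held 1.89% of pseudoglandular, 4.58% of canalicular and 10.9% of terminal sac junction reads. The lower circles together held 12.4%, 6.07% and 2.76%, and the others 45.1%, 44.8% and 47.4%. A circle not listed in 1 of the libraries was set to 3 reads there, so its ratio is a lower bound. Such a circle entered only through the library where it was high, so its direction was given by the minimum of 10 reads. This holds for 39 of the 107 higher and 50 of the 160 lower circles, and leaves 68 higher and 110 lower among the 974 listed in both. The balance of higher to lower rests on how libraries are scaled and on the minimum of reads. With 20 or more reads it was 72 to 73. It was 123 to 142 with the median of ratios, 130 to 136 with summed non-junction reads, and 354 to 34 with the median non-junction ratio, which adds 0.74 to each log2 ratio and is taken up with the junction ratio below.

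**Figure D1:**
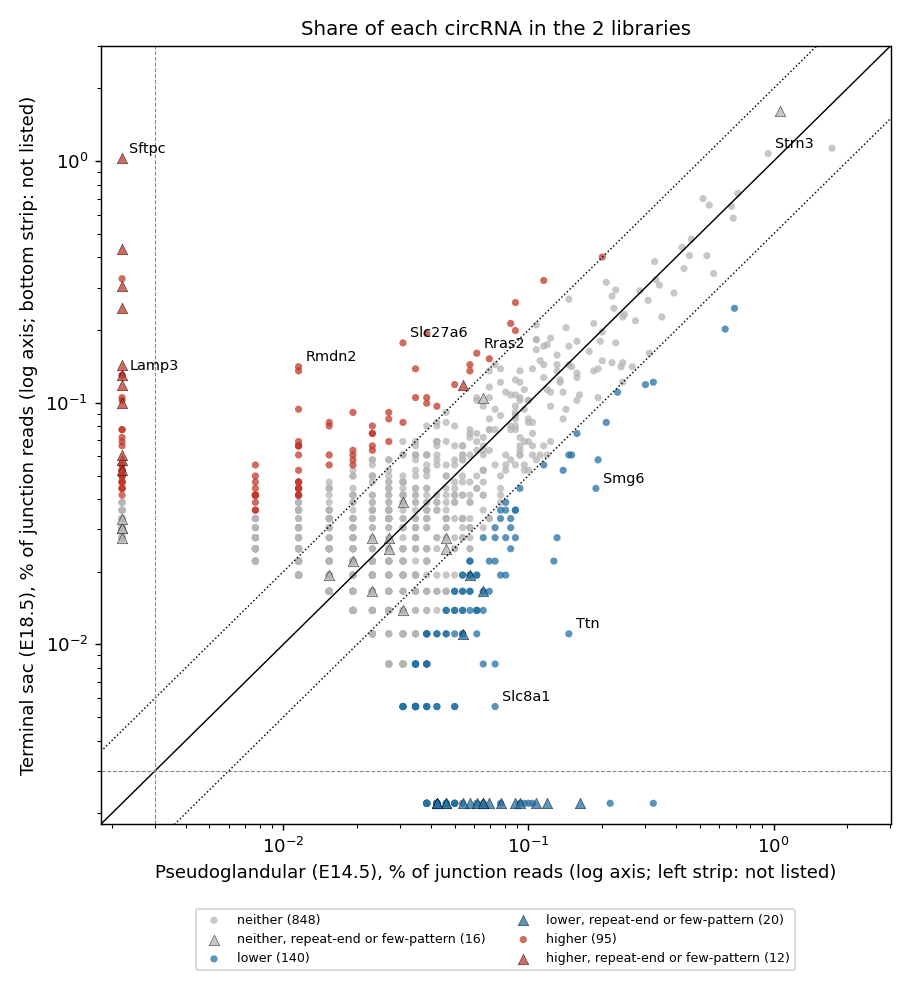
Share of each of the 1131 circRNAs in the pseudoglandular library (x axis, percent of junction reads, log scale) and in the terminal sac library (y axis, same unit and scale); the solid line marks equal shares, the dotted lines 2-fold, and the strips at the left and the bottom hold circles that one library did not list. The 107 higher circles (red) and 160 lower circles (blue) lie outside the dotted lines, triangles mark repeat-end or few-pattern circles, and of the circles with most reads Sftpc alone lies far from the line.

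Some circles need caution in how their reads arose. A circle was termed repeat-end where its ends hold a direct repeat of 6 or more bases, and few-pattern where its junction reads show few distinct alignment patterns (under 0.3 for each read and under 40 in all, in circles with 10 or more reads). Both terms were set once values were known. These were 12 of the 107 higher circles (11.2%), 20 of the 160 lower (12.5%) and 16 of the 864 others (1.85%). When all such circRNAs were left out and shares recomputed, 103 were higher and 134 lower.

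Among the higher circles without such marks, Rmdn2, a regulator of microtubule dynamics, gave the circle of exons 3 to 5 (chromosome 17, 79650302 to 79659473). It had 3 pseudoglandular, 12 canalicular and 51 terminal sac junction reads, or 0.0115%, 0.0384% and 0.141%. The ratio of shares of terminal sac to pseudoglandular was 12.2 (3.95 to 61.2). Pias1, a SUMO ligase that restrains STAT signalling, gave a circle of exons 3 to 7 (chromosome 9, 62912750 to 62923655) with 3, 21 and 49 reads, an 11.7-fold rise (3.79 to 58.9). Both circles were scarce in the first library and had a larger share in each later one.

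Lamp3 encodes a membrane protein of lamellar bodies, the organelles in which type 2 cells store surfactant. Its circle of exons 2 to 5 (chromosome 16, 19673391 to 19701382) was not listed in the pseudoglandular library and had 6 canalicular and 47 terminal sac reads, at least 11.3-fold higher. Scn7a, an atypical sodium channel gene, gave a circle of exons 5 to 9 (chromosome 2, 66726154 to 66743831), which likewise was not listed first and then had 16 and 47 reads, also at least 11.3-fold higher. Non-junction reads at the same ends went from 1854 to 6251 for Lamp3 and from 1485 to 3923 for Scn7a between the later libraries, so circular and linear reads rose together there.

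Gbe1 encodes the branching enzyme that builds glycogen, the store that immature type 2 cells are known to hold before surfactant is made. The junction with its acceptor at 70433545 on chromosome 16 had 10, 27 and 70 reads and rose 5.03-fold (2.58 to 10.95). The neighbouring junction at 70433549 appeared in the terminal sac library alone, with 38 reads. Taken as 1 circle of exons 4 to 7, they had 10, 27 and 108 reads and a ratio of 7.76 (4.06 to 16.6). Slc27a6, of the fatty-acid transport family, gave a circle on chromosome 18 with 8, 21 and 64 reads, a 5.75-fold rise (2.75 to 13.9). Morc3, a nuclear-body ATPase gene, gave 3, 12 and 34 reads from exons 6 to 8, an 8.14-fold rise (2.56 to 41.5). Fbn1, the fibrillin of microfibrils, gave a circle of exons 48 to 49 that was not listed, then at 8 and 28 reads, at least 6.71-fold higher. A second Fbn1 circle, of exons 44 to 49 and repeat-end, went the other way. It had 12 pseudoglandular reads, was then not listed, and was at least 5.57-fold lower.

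The highest ratio of all belonged to Sftpc, which encodes surfactant protein C. Its circle on chromosome 14 (70522154 to 70524022) was listed in the terminal sac library alone, with 372 junction reads (1.03% of the library), at least 89.1-fold above the pseudoglandular bound. Beside these stood 215541 non-junction reads, a junction ratio of 0.003, few alignment patterns and ends away from exon boundaries. Further few-pattern circles listed in the terminal sac library alone were those of Gm20425 (89 reads beside 111066 non-junction reads, among the hepatocyte genes above), Os9, an endoplasmic-reticulum lectin gene (52), Dvl2, a Wnt adaptor gene (47) and Eln, the elastin gene (36, with a repeat of 9 bases). The Col4a1 circle of exons 24 to 27 shown above was not listed, then had 101 and 156 reads, at least 37.4-fold higher. Without circRNAs of hepatocyte genes, 105 circles were higher and 156 lower.

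Among the lower circles were those of titin, the giant spring protein of striated muscle. Ttn exons 123 to 127 (chromosome 2, 76853605 to 76856366) had 38, 7 and 4 junction reads, or 0.146%, 0.0224% and 0.0111%, and was 13.2-fold lower (4.76 to 51.0). Slc8a1, the sodium-calcium exchanger of heart muscle, gave 19, 6 and 2 reads from exons 3 to 9 (chromosome 17, 81428182 to 81445593), 13.2-fold lower (3.19 to 117). A circle without a deposited host has exactly the ends of an M21 exon of Slc8a1 (chromosome 17, 81647809 to 81649638). It had 165, 79 and 73 reads, or 0.635%, 0.253% and 0.202%, and was 3.15-fold lower (2.37 to 4.20), with most of the fall before the canalicular stage.

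Smg6, an endonuclease of nonsense-mediated decay, gave a circle of exons 2 to 10 (chromosome 11, 74928993 to 74990215) with 49, 36 and 16 reads, 4.26-fold lower (2.38 to 8.03). Zfp407, a zinc-finger gene, gave 19, 4 and 3 reads from a circle on chromosome 18, 8.81-fold lower (2.59 to 46.5). Arhgap5, a GTPase-activating protein gene, had a circle within exon 1 with 180, 161 and 89 reads, 2.81-fold lower (2.17 to 3.67). Sp3, a zinc-finger transcription factor gene, gave 17, 18 and 3 reads from exon 4, 7.89-fold lower (2.28 to 42.0), and Oma1, a mitochondrial protease gene, 13, 3 and 2 reads from exons 2 to 8, 9.04-fold lower (2.05 to 82.6). Smg6, Arhgap5 and Sp3 were called lower between the canalicular and terminal sac libraries, Oma1 and Zfp407 between the first pair. Oma1 and Zfp407 had too few reads left to be compared at the second step.

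Other leading lower circles were listed in the pseudoglandular library and not in the terminal sac. Col4a5, a type IV collagen chain, had 20 reads from exons 10 to 29, at least 9.28-fold lower, and an intronic circle of the receptor phosphatase gene Ptprm 26, at least 12.1-fold lower. Repeat-end or few-pattern marks stood on those of Gnas (42 reads), the co-chaperone gene Stip1 (31), the chromatin remodeller gene Chd4 (28, and 31 in the canalicular library), Fbn2 (24), Col6a2 (23), Sec61a1 (20), Dhx9 (18) and Nisch (17). Without a deposited host were 5 of the higher and 9 of the lower circles.

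The canalicular library was not used for these calls, so it shows whether the share lay between the ends at the middle of the span. Among circles that this library listed, its share lay strictly between the ends for 70 of 82 higher circles (85.4%) and 82 of 113 lower ones (72.6%), against 238 of 727 others (32.7%). Called circles were chosen for end shares 2-fold or more apart, which by itself favours a middle share between them. The contrast with the others is therefore a description only. A circle that it did not list has no share there, and 25 higher and 47 lower circles were of this kind. Counting these as 0, and a 0 equal to an end as between, would add 20 higher and 32 lower circles.

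**Figure D2:**
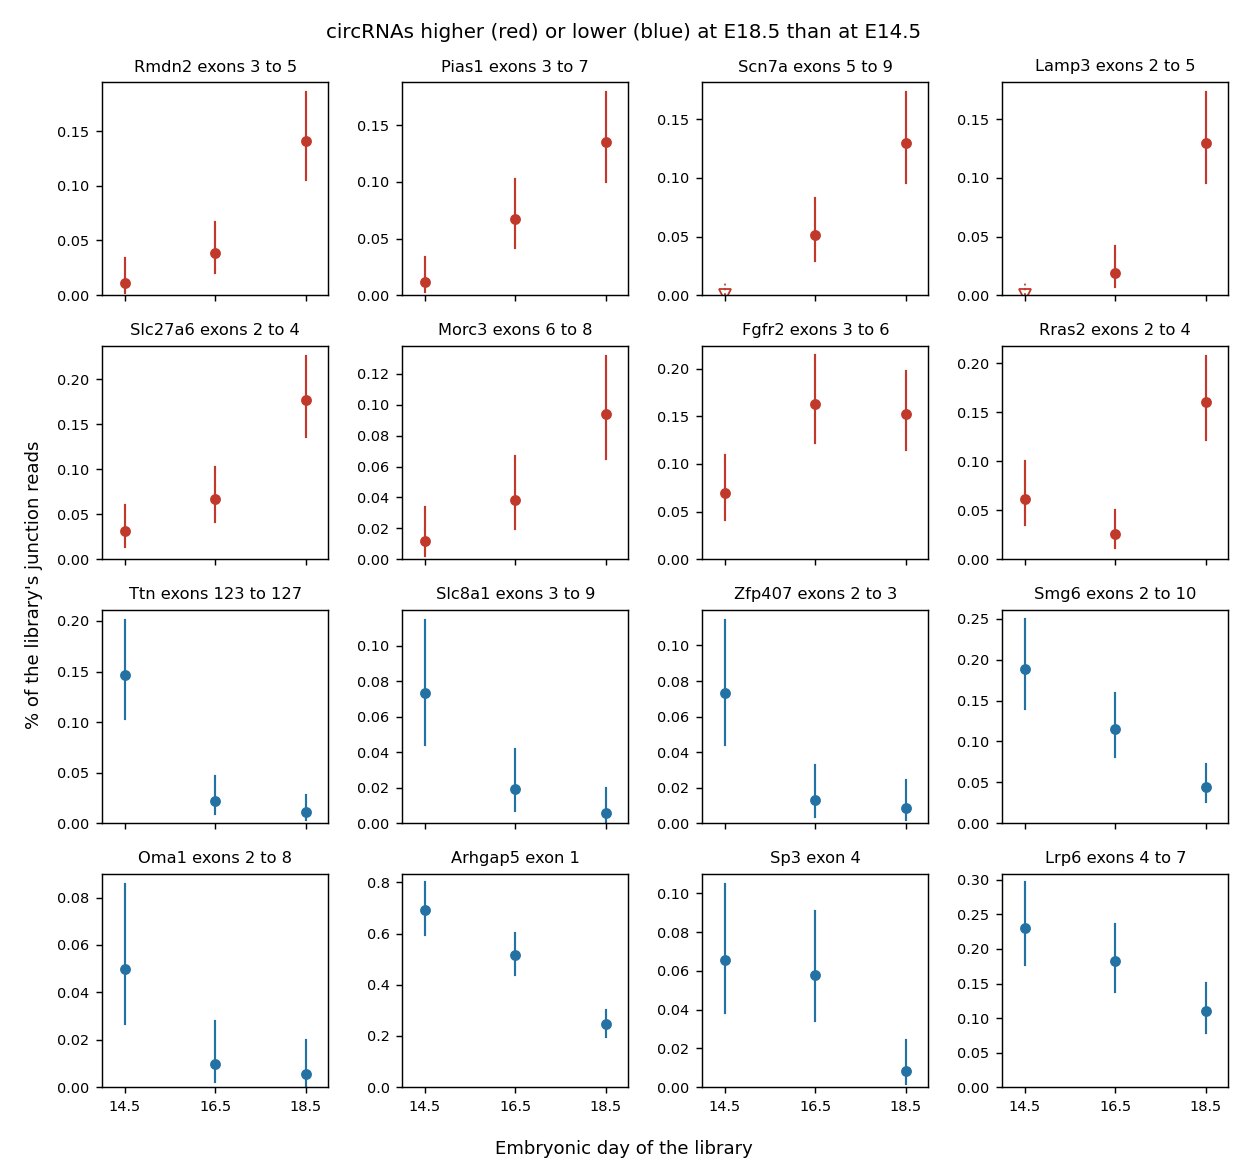
Share of junction reads (y axis, percent, linear scale from 0, different in each panel) against embryonic day (x axis) for 8 higher circles (red) and 8 lower circles (blue); vertical lines are exact 95% binomial intervals, and open triangles with a dotted line mark a library that did not list the circle and the level of 3 reads there. Rmdn2, Pias1 and Lamp3 rise through the canalicular point, Ttn is low by day 16.5, Smg6 falls in steps, and Rras2 dips at day 16.5 before it rises.

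Each step was then called by the same rule. Of the 107 higher circles, 20 were called higher from pseudoglandular to canalicular, a step where 8.16% of all compared circles were higher, and 60 from canalicular to terminal sac, where 8.94% were. Of the 160 lower circles, 73 were called lower at the first step, where 9.83% were lower, and 39 at the second, where 11.2% were. As shares of the called circles that could be compared at a step, these were 9.57% and 34.9% of 209 at the first (44.5% together, against 18% of all compared) and 31.9% and 20.7% of 188 at the second (52.7%, against 20.1%). These steps share a library with the comparison and with each other, so the counts describe the path and do not support the calls. Counted over both steps, 57 higher circles were called at the second step alone, 17 at the first alone and 3 at both, and 30 at neither. Lower circles were called 72 times at the first alone, 38 times at the second alone, 1 time at both and 49 times at neither. Part of this split is fixed by listing and by the minimum of 10 reads. Of the 267 called circles, 209 reached that minimum at the first step and 188 at the second. Listed circles could fall short too, as Lamp3 did at the first step and Zfp407 at the second. The 20 higher circles unlisted in both the pseudoglandular and canalicular libraries could be called only at the second step. The 32 lower circles unlisted in both the canalicular and terminal sac libraries could be called only at the first. No called circle was called the opposite way at a step.

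The 3 circles that rose at both steps were those of Gbe1 (acceptor at 70433545), Pias1 and Scn7a. A few took another path. Rras2, a Ras-family GTPase gene, had 16, 8 and 58 reads from exons 2 to 4, below both ends at the middle, and was 2.61-fold higher over the span (1.48 to 4.86). Atxn1, a transcriptional co-repressor gene, had 5 reads, was not listed, then had 33, 4.74-fold higher (1.84 to 15.6). Fgfr2, the receptor through which FGF10 drives branching, had 18, 51 and 55 reads from exons 3 to 6, 2.20-fold higher (1.27 to 3.97) with the whole rise before the canalicular stage. A Morc3 circle with its ends off exon boundaries had 84, 152 and 44 reads, above both ends at the middle, and was 2.66-fold lower over the span (1.82 to 3.92).

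**Figure D3:**
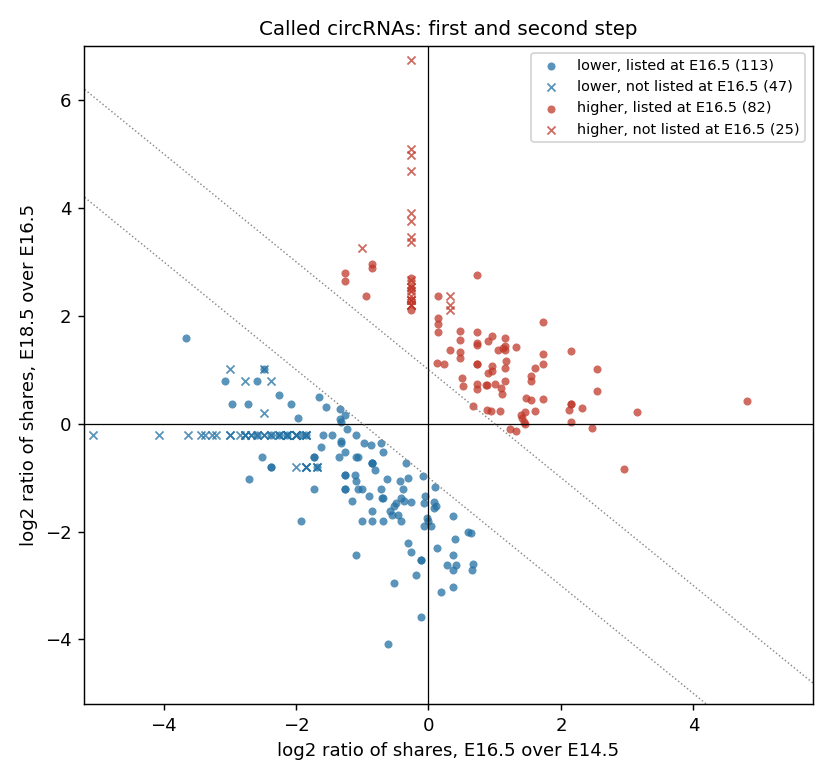
log2 ratio of shares for the first step (x axis, E16.5 over E14.5) and the second (y axis, E18.5 over E16.5) for the 107 higher (red) and 160 lower (blue) circles; crosses are circles not listed at E16.5, set to 3 reads, and dotted lines mark a total change of 2-fold. Higher circles spread upward along the y axis and lower circles leftward along the x axis. The counts of 57 against 17 and 38 against 72 steps split the same way. Part of the split is fixed by listing: 20 higher circles could be called only at the second step and 32 lower circles only at the first. Both axes share the E16.5 library.

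Junction reads were then summed by host gene, to set circles beside the biology of their hosts. Of 1182 hosts with 10 or more reads in the pair, 132 were higher (11.2%) and 162 lower (13.7%), and the median log2 ratio was 0.05 with 0.5 reads added, or 0.09 with unlisted hosts at their bound. The balance was 154 to 138 with the median of ratios, 172 to 130 with summed non-junction reads and 401 to 46 with the median non-junction ratio, and 106 to 87 with 20 or more reads. A host that a library of the pair did not list entered only through the other, so its direction was given by the minimum of 10 reads. This holds for every host below that is unlisted at an end of the span or has an at-least ratio, and for Col6a2, Col1a2 and Srsf1. Counts and medians for gene lists below are descriptions to be read against the values over all hosts. In whole lung, fewer cells of a type and less RNA per cell cannot be told apart.

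Among epithelial hosts, those that mark type 2 cells were higher. The type 2 list held 6, 34 and 481 reads over the 3 libraries in order, or 0.0231%, 0.109% and 1.33%. All 3 measured hosts were higher, with Sftpc and Lamp3 unlisted in the pseudoglandular library and so measured only through the terminal sac. Summed over 12 circles, Atp8a1, a phospholipid flippase gene, had 2, 10 and 31 reads and was 11.1-fold higher (2.83 to 96.1). Without repeat-end and few-pattern circles the list held 0.0240%, 0.113% and 0.319%. Lmo7, the 1 measured host of the type 1 list (flat gas-exchange cells), had no listed reads, then 5 and 11, and was neither higher nor lower. Among 4 epithelial transcription factor hosts, Cebpa was at least 3.59-fold higher with 15 terminal sac reads, a gene that hepatocytes express too. Foxp1 (20, 26 and 36 reads), Foxp2 (8, 5 and 11) and Grhl2 (7, 4 and 10) were neither.

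Vascular and immune hosts were higher or neither. These lists held only 5 and 4 measured hosts, and 13.7% of all hosts were lower. Prex2, a Rac exchange factor gene of endothelium, had 2, 5 and 55 reads over 16 circles, 19.8-fold higher (5.22 to 167). Pecam1, an adhesion molecule of endothelial cells, had 3, 19 and 22 reads, 5.27-fold higher (1.58 to 27.5), and the other 3 measured hosts of that list (Ptprm, Ldb2 and Adgrf5) were neither. Of 4 immune hosts, the engulfment gene Elmo1 went from 4 to 16 to 31 reads, 5.57-fold higher (1.97 to 21.7), and the receptor kinase gene Mertk from unlisted to 14 to 19, at least 4.55-fold. Mrc1, the macrophage mannose receptor, had 2, 17 and 10 reads and Dock10 2, 2 and 11, and neither passed the rule. Pecam1, Elmo1 and Mertk were also called higher from pseudoglandular to canalicular, and Prex2 from canalicular to terminal sac. Prex2 had too few reads to be compared at the earlier step. Of 3 erythroid hosts the transferrin receptor gene Tfrc was higher, with 2, 5 and 16 reads, 5.75-fold (1.35 to 51.5).

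Mesenchymal and contractile hosts were also higher or neither, among 7 and 4 measured hosts, and 13.7% of all hosts were lower. In the mesenchyme list 2 of 7 hosts were higher: the cytoskeletal linker gene Macf1 with 5, 21 and 44 reads, 6.32-fold (2.51 to 20.4), and Limch1 with 2, 2 and 18, 6.47-fold (1.55 to 57.5). Nfix (134, 195 and 176 reads) and Nfib (34, 51 and 48), nuclear factor I genes of lung maturation, were neither. Of 4 smooth muscle hosts, the focal-adhesion gene Lpp had 2, 14 and 21 reads and rose 7.55-fold (1.84 to 66.4), and the kinase gene Prkce rose 2.98-fold (1.28 to 8.05). Pde5a, the phosphodiesterase of vascular muscle, had 162, 215 and 255 reads over 21 circles, neither higher nor lower.

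Cardiac and striated-muscle hosts had no higher member among 7, and 3 were lower. Over all hosts 11.2% were higher and 13.7% lower. Ttn as a host had 62, 11 and 8 reads over 11 circles and was 10.8-fold lower (5.15 to 26.1), Slc8a1 had 21, 17 and 8 reads, 3.65-fold lower (1.55 to 9.54), and Ryr2, the calcium-release channel, had 11 pseudoglandular reads and was then not listed, at least 5.10-fold lower. Cacna1c, the L-type calcium channel gene, had 94, 91 and 73 reads and a ratio of 0.558 (0.405 to 0.766), short of the 2-fold rule, while Nebl (20, 12 and 39) and Myocd (8, 6 and 16) were neither. The list held 0.920%, 0.449% and 0.418% of junction reads, or 1.56%, 0.702% and 0.620% when the host-less Slc8a1 exon circle was added. Heart muscle extends into the pulmonary veins of mice, and whether heart tissue was present at dissection is not given in the labels. Its part in these values was not tested.

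Matrix hosts divided. Of 16, 2 were higher and 6 lower, and the median log2 ratio was -0.66 (-0.67 at the bound), turning to 0.08 with the median non-junction ratio scaling and to 0.19 over the 11 hosts listed in both libraries. Without repeat-end and few-pattern circles it was -0.16. Lower were Fbn2, the fibrillin of early development (49 reads, 4, then unlisted), the latent TGF-beta binding gene Ltbp1 (27, 20 and 4, 9.39-fold, 3.27 to 36.9), Col4a5, Col6a2, Col1a2 and the laminin gene Lama2 (11, 2, then unlisted). Higher were Col4a1, a chain of basement-membrane collagen, with 298, 608 and 948 reads, 2.29-fold (2.01 to 2.61), and Eln with 3, 2 and 51 reads, 12.2-fold (3.95 to 61.2). Repeat-end or few-pattern circles gave 905 of the 948 Col4a1 reads, 39 of the 51 Eln reads, 40 of the 49 Fbn2 reads and all the Col6a2 and Col1a2 reads of the pseudoglandular library. The calls of Ltbp1 and Lama2 hold no such reads.

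Signalling hosts moved in both directions. In the Wnt list 2 of 11 were higher, the co-receptor gene Lrp5 (3, 4 and 18 reads, 4.31-fold, 1.26 to 22.9) and Dvl2 through its few-pattern circle, and 3 were lower, Ctnnb1 (beta-catenin, with 23, 22 and 13 reads, 2.46-fold lower), Tnks2 (17, 6 and 7, 3.38-fold) and Fzd3 (9, unlisted and 3, 4.18-fold). Of 9 TGF-beta and BMP hosts, Smad1 (8, 34 and 36 reads, 3.23-fold, 1.48 to 8.05) and Hipk2 were higher and Ltbp1 and Smad5 (15, 2, then unlisted) lower. Of 9 FGF, Hedgehog and Notch hosts, Adam10, the protease that cuts Notch, had 8, 10 and 41 reads and was 3.68-fold higher (1.71 to 9.10). Fgfr2 as a host had 46, 78 and 98 reads over 12 circles, a ratio of 1.53 (1.07 to 2.22), short of the 2-fold rule. With circles that the files give to Fgfr2 and another gene together, among them an intronic circle of 41, 30 and 27 reads, it had 98, 114 and 128 reads and a ratio of 0.939 (0.716 to 1.23). The Wnt median log2 ratio of -0.48 (-0.48 at the bound) became 0.27 with the median non-junction ratio scaling.

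Where 11.2% of all hosts were higher and 13.7% lower, cell-cycle hosts had no higher member among 15, and 3 were lower. These were the helicase gene Hells (16, 15 and 3 reads, 7.42-fold, 2.12 to 39.8), the lamin gene Lmnb1 (15, 28 and 8, 2.61-fold, 1.04 to 7.11) and the spindle gene Ckap5 (28, 27 and 18, 2.17-fold, 1.16 to 4.16). The list held 2.19%, 2.11% and 1.35% of junction reads. Its median log2 ratio, -0.55 with either way of treating unlisted hosts, became 0.19 with the median non-junction ratio scaling. Ezh2, the methyltransferase of the Polycomb complex, had 180, 157 and 127 reads, a ratio of 0.507 (0.401 to 0.640), just short of the 2-fold rule. In the list of hormone and growth genes, H19, the imprinted growth-restraining RNA, had 20, 8 and 7 reads, 3.98-fold lower (1.62 to 11.1). The thyroid hormone receptor gene Thrb had 15 terminal sac reads only, at least 3.59-fold higher.

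**Figure D4:**
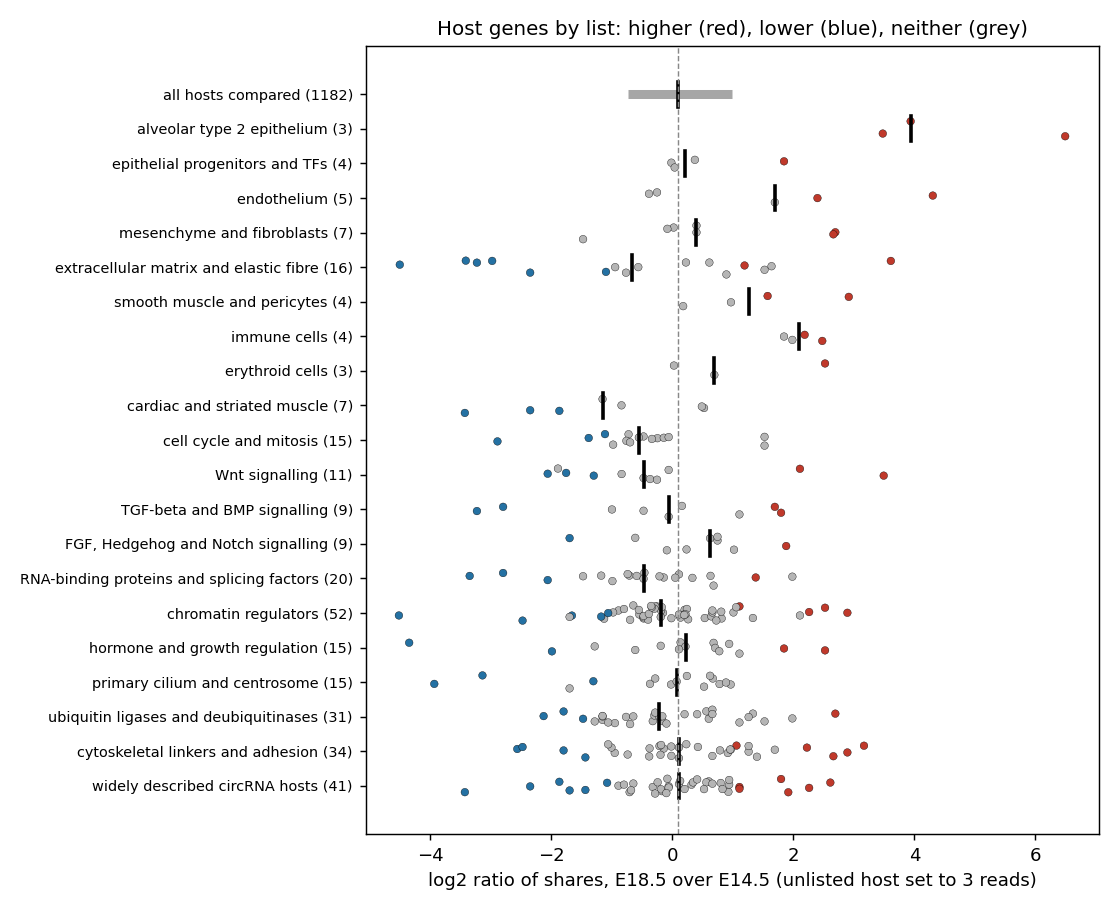
log2 ratio of shares (x axis, terminal sac over pseudoglandular, unlisted hosts set to 3 reads) for each host gene of a list (rows, number of measured hosts in brackets; some genes stand in several lists), with black bars at list medians, the grey bar at the middle of all 1182 hosts and the dashed line at their median of 0.09. The type 2 points all lie to the right, the cardiac list holds no higher host, and the matrix list holds 2 higher and 6 lower hosts.

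Most longer lists held called hosts in both directions. Of 52 chromatin hosts 4 were higher and 5 lower, among them Smarca2 (3, 14 and 31 reads, 7.43-fold higher, 2.32 to 38.0), Crebbp (16, 42 and 48, 2.16-fold higher), Nsd1 (78, 62 and 48, 2.26-fold lower) and Baz1b (25, 20 and 11, 3.16-fold lower). Of 20 RNA-binding hosts, the splicing regulator gene Ptbp3 was higher (13, 10 and 47, 2.60-fold, 1.38 to 5.23), and Srsf1, Dhx9 and Zc3h14 lower. Of 15 cilium and centrosome hosts none were higher and 3 lower, where 11.2% and 13.7% of all hosts were. The list median log2 ratio was 0.05, the same as over all hosts. The lower hosts were led by Cdk5rap2 with 33, 13 and no listed reads, at least 15.3-fold lower, and Ttbk2 with 19, 3 and no listed reads, at least 8.81-fold. Unlisted in the terminal sac library, both could only be called lower. Of 31 ubiquitin hosts 1 was higher and 3 lower, of 34 cytoskeletal hosts 5 were higher and 4 lower, and of 41 widely described circRNA hosts 6 were higher and 6 lower.

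Among circles with 1 deposited host, 8 hosts gave circles that went in opposite directions. Zfp638, a zinc-finger gene, had 3, 16 and 24 reads from exons 3 to 21, 5.75-fold higher (1.75 to 29.8), and 11, 2 and no listed reads from exon 2, which is few-pattern. Ppp2r3a, a phosphatase regulatory subunit gene, had 2, 2 and 15 reads from exons 2 to 5, 5.39-fold higher (1.25 to 48.6), and 10 pseudoglandular reads from exons 6 to 12 that no later library listed. Ttc3, a ubiquitin ligase gene, had 175, 161 and 235 reads in its main circle of exons 2 to 11, neither higher nor lower. Its minor circles of exons 2 to 5 (14, 4 and 6), 2 to 15 (12, 8 and unlisted) and 19 to 22 (9, unlisted and 2) were lower, and that of exons 11 to 46 (unlisted, 28 and 18) was higher.

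For other hosts the contrast came from how an end was placed. The Wnt co-receptor gene Lrp6 had 60, 57 and 40 reads at 1 junction of exons 4 to 7, called 2.09-fold lower (1.38 to 3.20). A junction with its end 4 bases away, at 134513415 in place of 134513419 on chromosome 6, held 20 reads in the terminal sac library alone. Merged, they had 60, 57 and 60 reads, a ratio of 0.719 (0.494 to 1.05), neither higher nor lower. Nlrp5-ps, a pseudogene, had 84 reads at 1 junction in the pseudoglandular library alone and 118 at a neighbour in the terminal sac alone. Merged over 3 junctions it had 223, 159 and 265 reads and a ratio of 0.854 (0.712 to 1.03). Merging ends within 5 bases left 104 higher and 161 lower circles.

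The circles with most reads in the pair, Sftpc apart, changed less than 2-fold in share. Strn3 exons 2 to 7, from a striatin scaffold gene, had 247, 349 and 389 reads and a ratio of 1.13 (0.963 to 1.33). Zfp827 exons 6 to 8 had 186, 223 and 266, a ratio of 1.03 (0.849 to 1.25), Mettl9 exons 2 to 4 178, 240 and 210, and Nfix exon 2 120, 186 and 172. Tulp4 had 450, 488 and 409 reads and a ratio of 0.653 (0.570 to 0.748), and Ube2k exons 2 to 6, from a ubiquitin-conjugating gene, 134, 192 and 253 and a ratio of 1.36 (1.096 to 1.686). The Col4a1 circle of exons 35 to 39, a few-pattern circle, had 277, 412 and 583 reads and a ratio of 1.51 (1.31 to 1.75). With Phf21a, Ttc3 and Sftpc these make the 10 circles with most reads, of which Sftpc alone was called.

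A different picture came from the junction ratio, which sets circular against linear reads at the same ends (junction reads times 2, over that plus non-junction reads). Its change was expressed as an odds ratio, junction over non-junction reads, for the 974 circles listed in both libraries. The ratio was higher in the terminal sac library for 263 (27%) and lower for 21 (2.16%), by the same rule of 2-fold and an interval without 1. The median odds ratio was 1.59 (quartiles 1.01 and 2.72), and 734 circles (75.4%) lay above 1. Their median junction ratio was 0.0470 in the pseudoglandular, 0.0540 in the canalicular (over the 844 it listed) and 0.0715 in the terminal sac library. The median log2 ratio of raw counts was 0.49 for junction reads and -0.27 for non-junction reads. Raw junction reads carry the larger junction total of the terminal sac library. As shares, the median log2 ratio over the 1131 compared circles was 0.05. Summed non-junction reads rose from 2940865 to 3128355 to 3799337. The terminal sac sum was led by Sftpc (215541), Alb (202951) and a second Sftpc circle (161232). Dividing each odds ratio by the median left 89 higher and 84 lower, a near balance that centring itself sets.

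Cell-cycle circles are an example of ratios that were higher where linear reads fell. Among the 17 compared, from 9 hosts, 11 had a higher ratio (64.7%, against 27% of all 974 circles) and none a lower one. Circles of the same host can share an end and are not independent of each other. The median odds ratio of the 17 was 2.96 and their median log2 ratio of non-junction reads -1.77. Bub1b, a spindle-checkpoint kinase gene, showed this in its circle of exons 17 to 19 (chromosome 2, 118631759 to 118635277). It had 39, 50 and 51 junction reads beside 1421, 1158 and 256 non-junction reads, so the junction ratio went from 0.052 to 0.079 to 0.285, an odds ratio of 7.23 (4.68 to 11.2). Tpx2, a spindle assembly gene, had 7, 12 and 12 junction reads beside 1715, 1767 and 398 non-junction reads, an odds ratio of 7.18 (2.88 to 17.9). Kif23, a kinesin of cytokinesis, had 10, 7 and 12 beside 1317, 1289 and 256 in exons 14 to 17, 6.12 (2.663 to 14.04). In these 3 circles linear reads fell after the canalicular stage and circular reads held. In 2 of the 11 circular reads fell as well, and their share was called lower: Lmnb1 had 15, 28 and 8 junction reads, and a second Bub1b circle, of exons 16 to 17, had 13, was not listed, then had 6.

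Polycomb gene Ezh2 had 12, 16 and 25 junction reads in exons 2 to 8 beside 911, 1069 and 338 non-junction reads, an odds ratio of 5.49 (2.76 to 10.9). Its circle of exons 2 to 15 had 50, 28 and 21 beside 346, 250 and 105, an odds ratio of 1.40 (0.807 to 2.42), so circles of this host did not share 1 ratio. Bard1, the partner of BRCA1, rose in ratio from 0.057 to 0.166 to 0.358, and Myocd, a smooth and cardiac muscle co-activator gene, stood at 0.041, 0.042 and 0.304. Both shares were neither higher nor lower. Pias1 stood apart from these, since its junction reads rose and its non-junction reads were 308, 478 and 348, giving a ratio of 0.019, 0.081 and 0.220 and an odds ratio of 12.5 (4.19 to 37.4).

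**Figure D5:**
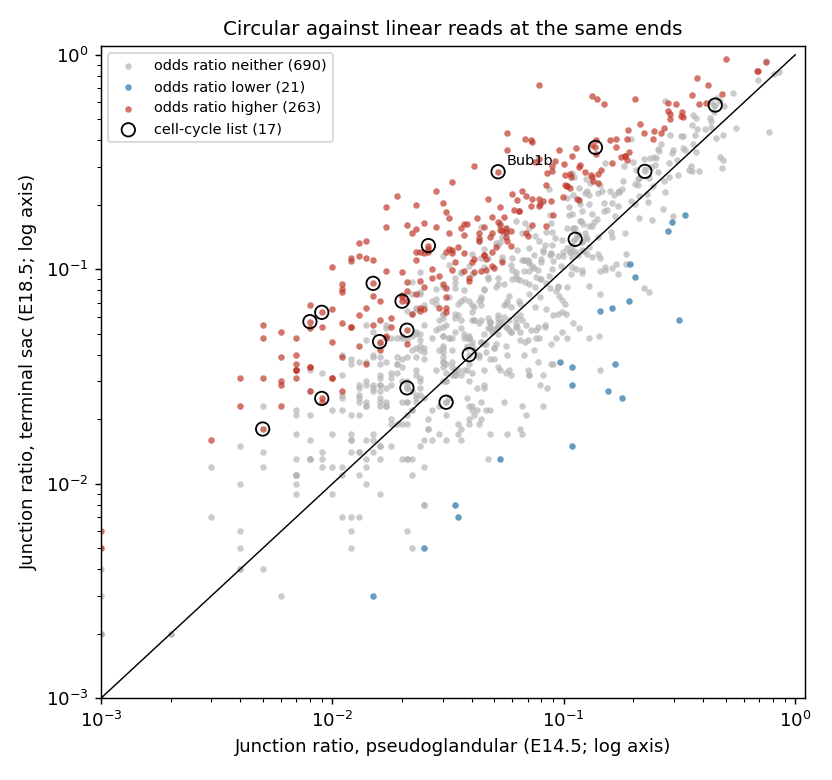
Junction ratio (0 to 1, log axes) of the 974 circles listed in both libraries, pseudoglandular (x axis) against terminal sac (y axis), with the line of equal ratios; red and blue mark odds ratios called higher (263) and lower (21), and rings mark the 17 cell-cycle circles. The cloud lies above the line, and 11 of the 17 rings are called higher, with Bub1b at 0.052 and 0.285.

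Some of the circles with most reads had shares that changed less than 2-fold and junction ratios that rose. Ttc3 exons 2 to 11 went from 0.306 to 0.345 to 0.589 (odds ratio 3.25, 2.57 to 4.11) and Ube2k from 0.282 to 0.345 to 0.546 (3.06, 2.40 to 3.89). Mettl9 went from 0.325 to 0.462 to 0.542 (2.45, 1.94 to 3.11) and Strn3 from 0.329 to 0.373 to 0.514 (2.15, 1.79 to 2.59). Tulp4 stood at 0.808, 0.839 and 0.813, and Col4a1 exons 35 to 39 at 0.075, 0.069 and 0.067. The canalicular ratio lay between the ends for 201 of the 264 called circles that this library listed. These circles were chosen for odds ratios of 2-fold or more, which favours a middle value between the ends. Of 68 circles with a higher share that were listed in both libraries, 48 also had a higher junction ratio and none a lower one. Of 110 with a lower share, 17 had a lower ratio, 6 a higher one and 87 neither. Of 796 with neither call in share, 209 had a higher ratio.

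Lower junction ratios were few and most came with a lower share. Zfp407 went from 0.167 to 0.043 to 0.036 (odds ratio 0.213, 0.0670 to 0.678), Sp3 from 0.025 to 0.019 to 0.005, Oma1 from 0.179 to 0.030 to 0.025, and Arhgap5 from 0.294 to 0.239 to 0.166 (0.479, 0.365 to 0.627). Non-junction reads at these ends went from 189 to 159 for Zfp407 and from 866 to 897 for Arhgap5, a smaller change than that of their junction reads. Smg6 fell from 0.283 to 0.151. Ttn differed, since its junction reads went from 38 to 4 and its non-junction reads from 122 to 20, and its odds ratio of 0.698 (0.237 to 2.06) included 1.

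Higher, lower and other circles had similar lengths, exon numbers and GC content. Both ends lay at exon boundaries in 77.6% of higher, 78.8% of lower and 91.0% of the other circles. The median spliced length was 549 bases for higher, 702 for lower and 617.5 for the other circles, with 3, 4 and 4 exons. Circles with both ends at exon boundaries began at exon 2 in 45.8%, 47.6% and 47.7%, and their median GC content was 47.3%, 47.1% and 46.4%. These values were not tested, and each median lies within the quartiles of the other groups. The median junction ratio was 0.04, 0.06 and 0.121 over the 3 libraries for higher circles, and 0.07, 0.049 and 0.0405 for lower ones. Each median covers only the circles that the library listed, so the sets of circles differ between libraries. As the share and the ratio are built from the same junction reads, this is a description only.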

How the data were processed

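Files listing circRNAs per library were deposited by the authors. Their columns match the caller CIRI; per the submitters' processing notes, BWA, HISAT2 2.0.5, cutadapt, HTSeq and StringTie were used in roles not given, with build mm10. Junction and non-junction reads are deposited raw counts, per the file headers, with blank non-junction cells taken as 0. The deposited fraction, the junction ratio, matched its recomputation in every row. Deposited alignment-pattern numbers count distinct alignments. Each listed circRNA has 2 or more reads, and 37.4% to 39.3% of the listed circRNAs had just 2.

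Shares were taken of each library's junction reads. Ratios of shares carry exact conditional binomial 95% intervals, odds ratios Woolf intervals with 0.5 added to each count. Calls needed 10 reads in the pair, 2-fold and an interval without 1. Unlisted circRNAs were set to 3 reads. Exons came from GENCODE M21, which held 4647 of 4653 deposited host identifiers, 67 circRNAs having several and counted under the first in host sums unless said. The files hold no strand column. Calculations used Python 3.11.15, pandas 2.3.3 and scipy 1.17.1 and were tested on simulated counts. The members, gene lists and rules were chosen with earlier results of these data known, and the hepatocyte list after its values were seen. Named were the leading 15 higher and 15 lower circles, the 10 with most reads, 6 and 6 by junction ratio, hosts with opposite circles, called list members and up to 4 others for each list, and circles with the canalicular share outside the ends; not every one is described. The host-less Slc8a1 circle was named after its values were seen. Some results within these rules are not reported here.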

Additional observations from a re-analysis of the deposited data

How the results depend on the processing

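No paired analysis was possible because each stage has 1 library and replicate numbers pair nothing. With the median non-junction ratio scaling, chosen after seeing the data, 354 circles and 401 hosts were higher and 34 circles and 46 hosts lower. With 20 or more reads, 72 circles and 106 hosts were higher and 73 circles and 87 hosts lower, and junction ratios were higher for 159 and lower for 12. Among circles listed in both libraries 68 were higher. Dividing by the median odds ratio gave 89 higher and 84 lower junction ratios, and a 3-fold threshold 175 and 13. The cause was not tested, except that higher thresholds and fewer circles tested lower counts by construction. The Nlrp5-ps circle listed in the terminal sac library alone turned to a ratio of 0.854 when ends within 5 bases were merged. The 3 other scalings raise every ratio, so no higher call could be lost. Of the 160 lower circles 142, 136 and 34 kept their call with the median of ratios, summed non-junction reads and the median non-junction ratio. With ties to an end counted, the canalicular share lay between the ends for 76.4% of called circles, and for 73.4% to 80.0% over the alternatives planned; without ties it was 56.9%, a count added after seeing the data. Without circles of several deposited hosts, also added, 107 circles and 132 hosts were higher and 159 and 162 lower. TGF-beta, RNA-binding, chromatin and ubiquitin list medians also turned positive with the median non-junction ratio scaling. Depth limits circles near 10 reads to changes of several-fold.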
